A study of Mus musculus with 66 samples.

Results

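The miRNAs mmu-miR-574-3p and mmu-miR-574-5p, here miR-574-3p and miR-574-5p, are cut from the opposite sides of a single hairpin, and they were taken by name from the deposited tables, where they make up 2 of 1826 miRNAs in C3H mice and 2 of 1885 in F2 mice. Plasma was drawn at necropsy from 8 male C3H mice with hepatocellular carcinoma (HCC) and from 5 male C3H mice without it (non-HCC). The labels give none of these 13 a single month after radiation. By the study's methods, male C3H mice were irradiated, but which of the 13 were is not known here. Spontaneous and radiation-induced tumors were both present among the HCC mice by the same methods. The labels do not say which mouse had which, so the HCC mice were kept as a single group. The F2 mice were offspring of a cross of BALB/c with C3H, of both sexes, all of them mice that developed HCC, and 53 tail vein samples from 15 of them are labelled month 1, 6, 12 or 18 after radiation. The F2 columns name neither mouse, month nor sex, so these libraries were used as 53 unlabelled measurements with repeated mice among them.

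Each miRNA hairpin is cut into a short duplex, of which a strand is loaded into an Argonaute protein and guides it to target mRNAs through its seed, bases 2 to 8, while the opposite strand is mostly degraded. In plasma, miRNAs are carried in vesicles and protein complexes, and they reach it from liver, blood cells, muscle and other tissues. MiR-574-3p has been described among the circulating miRNAs of people with HCC.

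The sequences of both arms are shown with the seed in capitals, since the seeds differ and each arm would guide to its own targets. They are from RefSeq on the GRCm38.p6 assembly, as are all sequences below.
miR-574-3p: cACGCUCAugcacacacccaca
miR-574-5p: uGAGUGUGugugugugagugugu
The hairpin is shown with both arms in capitals, 5p before 3p.
Mir574: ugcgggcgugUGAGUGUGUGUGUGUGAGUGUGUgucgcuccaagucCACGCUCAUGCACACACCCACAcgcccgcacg
Mir574 lies on chromosome 5 of GRCm38 from 64970318 to 64970395 on the plus strand. In GENCODE M21 it falls in intron 1 of 1 of the 2 transcripts of the protein-coding gene Fam114a1, on the same strand and 247 bases after the start of that gene, and it overlaps no exon of it. The 5p arm has 23 bases and the 3p arm 22, with 13 bases of loop between them. In the fold of lowest free energy, 20 bases of the 5p arm pair with the 3p arm.

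The 5p arm is almost wholly a repeat of UG. Mature miRNAs that hold UGUGUGUGUG, which is UG repeated 5 times, were searched on the given strand, since they could share reads with it. MiR-1187 was the other one found, so that 0.119% of the 1679 mature miRNAs in the reference held the repeat, miR-574-5p included.
miR-1187: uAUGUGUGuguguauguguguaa
MiR-1187 was listed in 2 of the 8 HCC and 1 of the 5 non-HCC mice and was too low to be tested. The longest stretch that miR-574-5p shares with any other mature miRNA of the reference is 12 bases, and for miR-574-3p it is 9. No other mature miRNA of the reference had the seed of either arm. The reference matched 1566 of the 1826 miRNA names of C3H mice, and the sequences of the others were not searched.

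A count here is a UMI, a molecule of RNA counted once by its barcode. The 13 C3H libraries held 9513136 to 14247488 miRNA UMIs each. Levels are log2 of the UMI count plus 1 UMI, divided either by the mean count of the spike-ins UniSP2 and UniSP4 (the spike-in scale) or by all miRNA UMIs of the library (the total scale). The spike-in mean of HCC libraries spanned 83000 to 470000 and that of non-HCC libraries 182000 to 366000, so the scales differ most among HCC mice. The pairs of libraries with the lowest median chi-square were of HCC mice, and they are called close by rank, without a threshold. Over miRNAs, the median chi-square between libraries was 0.938 for HCC mice 3 and 7, 0.972 for HCC mice 2 and 5 and 1.49 for HCC mice 1 and 6, against at least 2.40 in other HCC pairs and 0.455 from counting alone. The closest non-HCC pair had 1.69, not far from HCC mice 1 and 6. Its r of log2 counts was 0.9867, against 0.9707 for HCC mice 1 and 6. The close HCC pairs differed by more than the sampling noise, which cannot tell separate mice from repeated samples. They were kept as separate mice by their labels. The comparisons of HCC with non-HCC mice and the correlation over all C3H mice are also given with each pair summed.

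MiR-574-3p was the abundant arm in every C3H mouse. Its UMI count was lowest at 1912, with a median of 3866 and a highest value of 16875, in HCC mice, and it was 1416, 1232, 1597, 2560 and 781 in non-HCC mice 1 to 5. The 5p arm had 148, 108, 25, 81, 113, 126, 12 and 64 UMIs in HCC mice 1 to 8. In non-HCC mice 1 to 5 it had 27, 34, 30, 41 and 32 UMIs. The 5p arm was therefore close to constant in non-HCC mice, while HCC mice fell both above and below them. By mean share of the library the 3p arm ranked 108 and the 5p arm 444 among the 1826 miRNAs.

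MiR-574-3p was higher in HCC mice. On the spike-in scale, edgeR's quasi-likelihood test put its log2 fold change at 2.53, standard error 0.72 (edgeR adjusted p = 0.0326). Over all 1452 miRNAs tested, 7.51% were called higher in this comparison and 0 lower, while at an unadjusted p under 0.05 edgeR had 3 miRNAs lower, and DESeq2 scaled to the spike-ins called 2 lower. With library totals as the divisor, edgeR called 8.47% of miRNAs higher, and the log2 fold change of miR-574-3p was 1.97 (edgeR adjusted p = 0.0290). Across the tested miRNAs the log2 fold change had a median of 0.78 on the spike-in scale and 0.37 on the total scale, so part of the size of any single change is shared by most miRNAs.

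On the spike-in scale HCC mice had a mean log2 level of miR-574-3p of 12.21 ± 1.45 (SD, n = 8), and non-HCC mice had 10.17 ± 0.50 (SD, n = 5). The difference of 2.05 had a 95% interval of 0.52 to 3.55 (two-sided exact permutation test over 1287 splits, p = 0.0124). HCC mice 3 and 7 lay inside the range of the non-HCC mice, and the other 6 lay above it. The difference was 1.69 on the total scale (exact permutation p = 0.00855), where 5 HCC mice exceeded the highest non-HCC mouse. With the close pairs summed, its log2 fold change was 2.72 (edgeR adjusted p = 0.0275) and the difference of the mean levels 2.21 (exact permutation p = 0.0238). The call of edgeR was narrow. Limma on log2 levels did not make it (adjusted p = 0.147), and leaving out HCC mouse 2 or 4 or any of the 5 non-HCC mice ended it, with adjusted p from 0.0505 to 0.0929 in edgeR.

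The change of miR-574-5p was of similar size but did not pass the threshold. It had a log2 fold change of 2.33, standard error 0.80 (edgeR adjusted p = 0.0773), and of 1.5 on the total scale (edgeR adjusted p = 0.0680). The mean of HCC mice on the log2 spike-in scale was 6.26 ± 2.07 (SD, n = 8), and non-HCC mice had 4.77 ± 0.49 (SD, n = 5). The difference of 1.49 had a 95% interval of -0.67 to 3.49 (exact permutation p = 0.143). Here 6 HCC mice exceeded the highest non-HCC mouse, while HCC mice 3 and 7, with levels of 3.83 and 2.73, were under the lowest. With the close pairs summed the log2 fold change was 2.16 (edgeR adjusted p = 0.0767) and the difference of the mean levels 1.45 (exact permutation p = 0.127). Without HCC mouse 7 the difference was 1.99 (exact permutation p = 0.0328). DESeq2 called the arm both when scaled to the spike-ins (adjusted p = 0.0136) and with factors of its own (adjusted p = 0.0354), and edgeR did so without HCC mouse 3 (adjusted p = 0.0297) or without HCC mouse 7 (adjusted p = 0.0224).

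**Figure D1:**
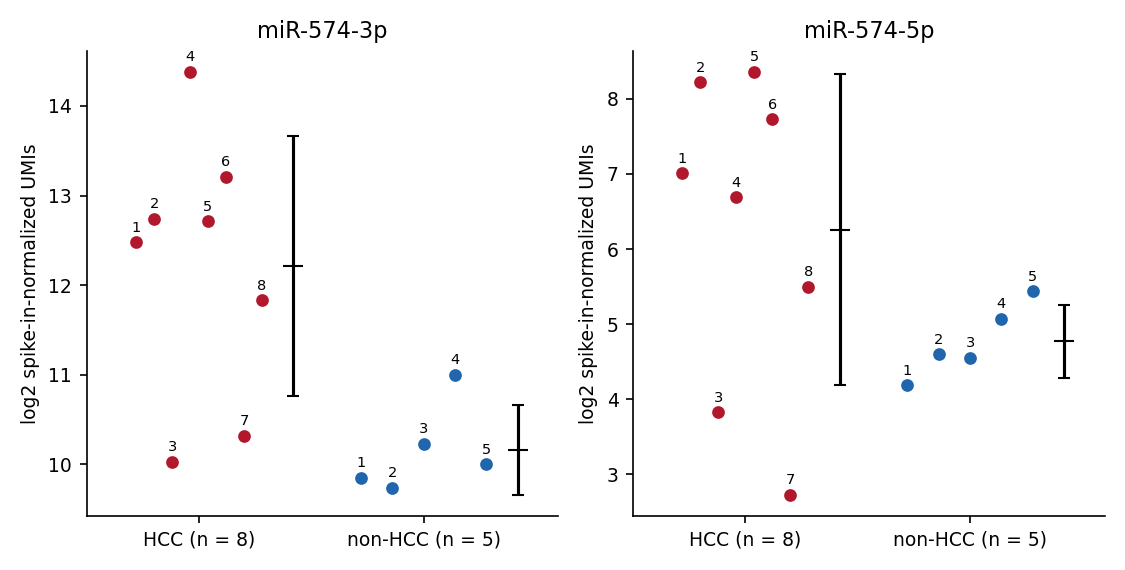
Log2 spike-in-normalized UMIs of miR-574-3p and miR-574-5p in each C3H mouse, numbered within its group, with the group mean and SD in black. HCC mice 3 and 7 are the lowest HCC mice in both panels, at 10.03 and 10.32 for the 3p arm and at 3.83 and 2.73 for the 5p arm.

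Whether the arms changed alike was tested on their ratio within each library, which no scale can alter. HCC mice had a log2 ratio of 5p over 3p of -5.95 ± 1.25 (SD, n = 8), against -5.40 ± 0.55 (SD, n = 5) in the non-HCC group. The difference of -0.56 had a 95% interval of -1.89 to 0.79 (exact permutation p = 0.373). With the close pairs summed it was -0.76 (exact permutation p = 0.254). An unequal change of the arms was thus not detected, and a difference of more than 1 on the log2 scale lies within the interval.

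Single HCC mice differed in the ratio far beyond counting error. The 5p arm took 2.20, 4.14, 1.29, 0.478, 4.63, 2.18, 0.474 and 1.21% of the UMIs of both arms in HCC mice 1 to 8. In non-HCC mice 1 to 5 its share was 1.87, 2.69, 1.84, 1.58 and 3.94%. HCC mice 2 and 5 thus had a larger share than any non-HCC mouse, and HCC mice 3, 4, 7 and 8 a smaller one. The exact (Clopper-Pearson) 95% interval was 3.83 to 5.55% in HCC mouse 5 and 0.380 to 0.593% in HCC mouse 4, and it covers counting error only. Counting would give the log2 ratio an SD of 0.22 among the HCC and 0.26 among the non-HCC mice. HCC mouse 4 had the highest 3p count of the 13 mice, 16875 UMIs, with 81 UMIs of 5p. It also had the highest mean level of the muscle list among HCC mice, 13.30 on the log2 spike-in scale, and the part of muscle RNA in its 3p count was not tested.

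**Figure D2:**
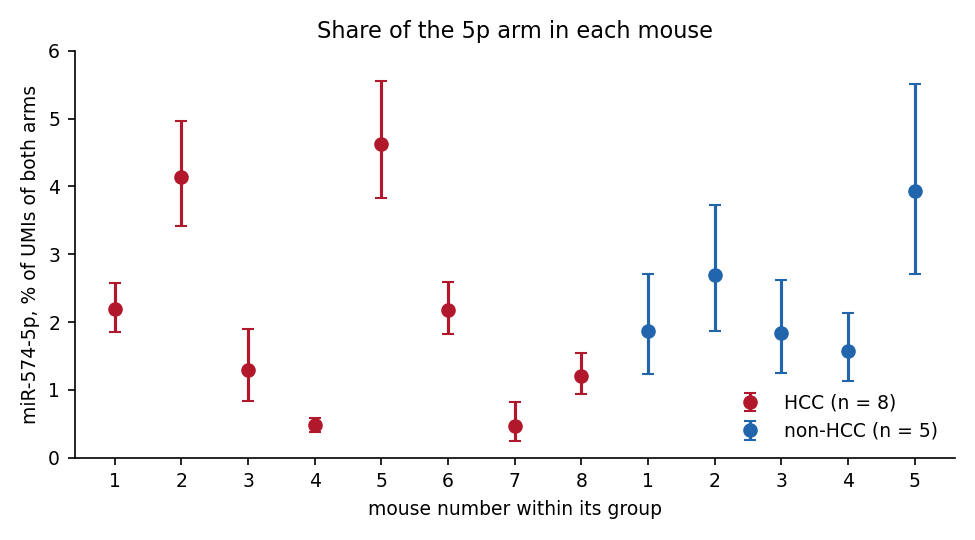
Share of miR-574-5p in the UMIs of both arms (%) for each C3H mouse, with exact 95% binomial intervals. HCC mice 2 and 5 had 4.14 and 4.63%, while HCC mice 4 and 7 had 0.478 and 0.474%.

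Over the 13 C3H mice the arms rose and fell together on the spike-in scale. Pearson's r of their log2 levels was 0.81 (permutation p = 0.00127) and Spearman's rho 0.75 (permutation p = 0.00481). Leaving out the 2 mice farthest from the median of miR-574-3p gave r = 0.87 (permutation p = 0.00067). With the 3 close pairs of HCC libraries summed, r was 0.80 over 10 libraries (permutation p = 0.00600). Scaled to library totals, r was 0.63 (permutation p = 0.0228) and rho 0.52 (permutation p = 0.0693). On that scale r was 0.57 without the 2 farthest mice (permutation p = 0.0695), so that the relation no longer passed, and 0.70 with the close pairs summed (permutation p = 0.0242). With TMM factors, which scale on the bulk of the miRNAs, r was 0.56 (permutation p = 0.0450). For deviations from the group means r was 0.78 on the spike-in scale and 0.44 on the total scale. In these points the group difference and the shared divisor both enter. The log2 UMIs of the arms before any scaling had r = 0.58, and the log2 spike-in mean had r = -0.72 with the log2 UMIs of the 5p arm and r = -0.15 with those of the 3p arm.

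Within the 8 HCC mice the joint variation depended on the scale. On the spike-in scale r was 0.80 (exact permutation p = 0.0191) and rho was 0.64 (exact permutation p = 0.0962). Without the 2 HCC mice farthest from their median, mice 3 and 7, r was 0.20 (exact permutation p = 0.714), so on this scale the relation rests on those mice. Without HCC mouse 4 it was 0.95 (exact permutation p = 0.00556). It was 0.45 on the total scale (exact permutation p = 0.286) and with TMM factors 0.33 (exact permutation p = 0.423). Without the 2 HCC mice farthest from the median on the total scale, r there was 0.70 (exact permutation p = 0.176). These p-values take the 8 libraries as independent, and no correlation was computed over the 5 that remain when the close pairs are summed.

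In the F2 libraries the arms were measured far less deeply, and their joint variation was weaker. The libraries held 205194 to 3020311 miRNA UMIs, and the spike-in mean spanned a 35.2-fold range. MiR-574-3p was listed in all 53, with 80 UMIs at the lowest, a median of 402 and 1064 at the highest. MiR-574-5p was listed in 42 of them, with 10 to 41 UMIs and a median of 18.5, and stood at 0 in 11. No value from 1 to 9 occurs in either table, so an entry of 0 is read as fewer than 10 UMIs. The libraries with the 5p arm at 0 had a median of 178 UMIs of the 3p arm, against 431 in the others.

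Over the 53 F2 libraries Pearson's r of the log2 levels was 0.49 and rho 0.54 on the spike-in scale, and r was 0.22 on the total scale. In the 42 libraries that list the 5p arm, r was 0.63 on the spike-in scale, 0.21 on the total scale and -0.01 with TMM factors. These are descriptions over libraries that share mice, with no p. On the spike-in scale both arms share a divisor that spanned a 35.2-fold range, while the listed 5p counts ran from 10 to 41 UMIs. The 42 libraries were also selected by the 5p count itself. The part of the divisor and of this selection in r was not tested. The log2 level of the listed 5p arm had an SD of 0.75 on the total scale, of which counting would give 0.34. Summed over the libraries, the 5p arm made up 3.78% of the UMIs of both arms, or 4.2% with 9 UMIs put for each 0. In C3H mice the same share was 1.53% in the HCC group and 2.12% in the non-HCC group. C3H blood came from the heart and F2 blood from the tail vein, and strain, site, depth and table cannot be told apart.

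**Figure D3:**
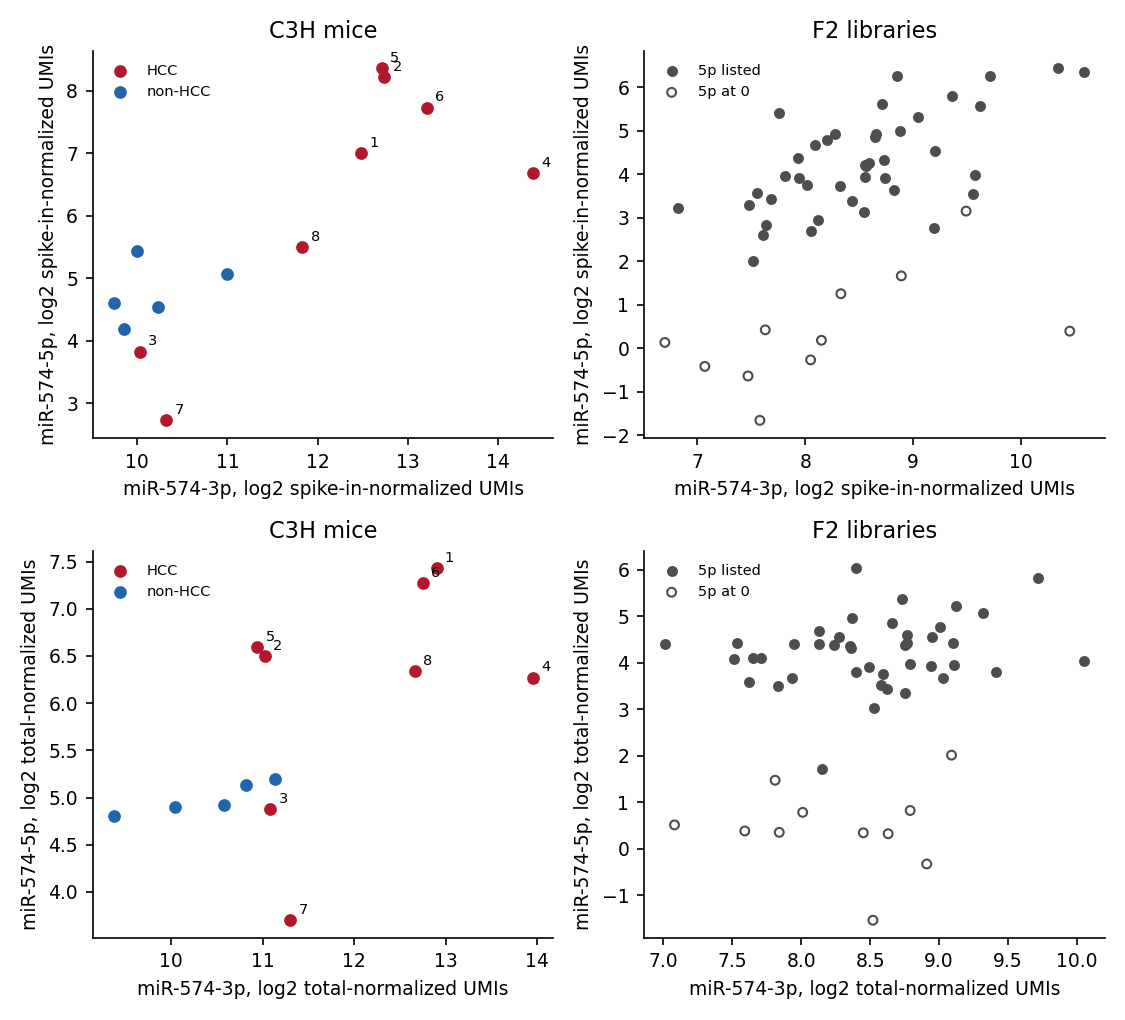
Log2 level of miR-574-5p against that of miR-574-3p in the 13 C3H mice (left, HCC mice numbered) and the 53 F2 libraries (right), on the spike-in scale (top) and the total scale (bottom), with open points for libraries that list the 5p arm at 0. In C3H mice r was 0.81 and 0.63 on the spike-in and total scale, and in F2 libraries 0.49 and 0.22.

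To see whether such arms usually vary together, 148 pairs of arms were described in the same way. Each arm had at least 10 UMIs in every C3H library. The pairs are called hairpins below, though an arm shared by several loci can enter several pairs, as miR-16-5p does. The count of such an arm can come from several hairpins, and how far this lowers its r was not tested. The arms of miR-574 had a lower r on the spike-in scale than those of most hairpins, 0.81 against a median of 0.89, and 91 hairpins had a higher value. Among the 53 hairpins whose lowest count was at most 24 UMIs, where counting error is more alike, the median was 0.76 and 21 had a higher value, so the direction turned with depth. Its r of 0.63 on the total scale was close to the median of 0.64 over all 148. The ratio of the arms was more variable than in most hairpins among HCC mice. Its SD of 1.25 over the 8 HCC mice compares with a median of 0.58, and 8 hairpins had a larger SD. In non-HCC mice its SD of 0.55 stood nearer the median of 0.40, with 42 hairpins above it. Among the 53 hairpins of low count the median SD in HCC mice was 0.78, and 6 hairpins lay above miR-574. In the F2 table miR-574 could not be placed, since its 5p arm was at 0 in 11 libraries.

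**Figure D4:**
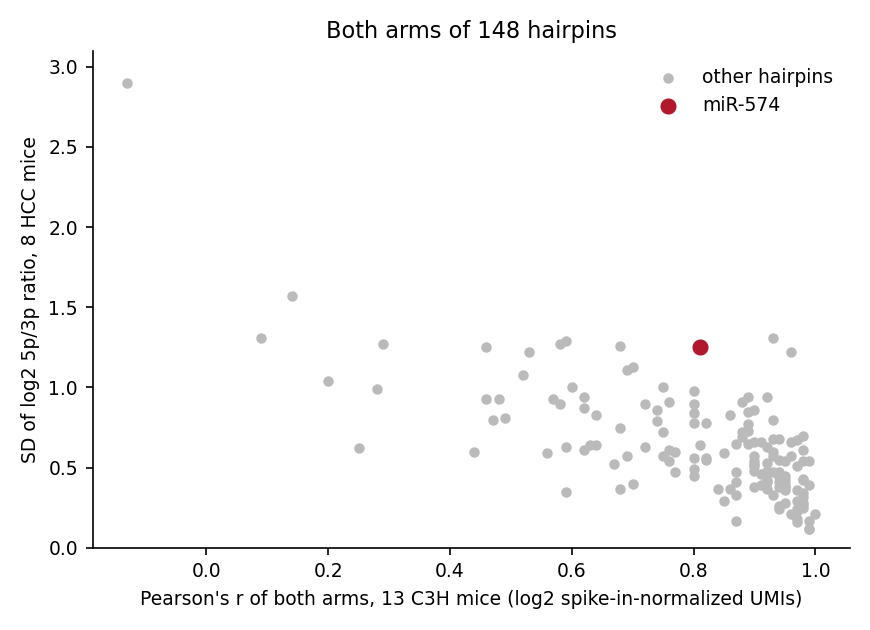
For 148 pairs of hairpin arms, Pearson's r of both arms over 13 C3H mice (log2 spike-in-normalized UMIs) against the SD over the 8 HCC mice of the log2 5p/3p ratio. MiR-574, in red, lies at r = 0.81 and SD = 1.25, and 8 pairs have a larger SD.

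The miRNAs that varied most like each arm were ranked by r, as a description, among 699 miRNAs with at least 10 UMIs in every C3H library. For miR-574-3p on the spike-in scale they were miR-6413 (r = 0.97), miR-1938 and miR-1249-3p (both 0.96), and miR-874-3p and miR-1843a-3p (both 0.95), where the median over all compared was 0.61. The total scale gave miR-24-3p (0.96), miR-6948-3p (0.95), miR-361-5p and miR-1938 (both 0.94) and miR-664-3p (0.93), with a median of 0.31. MiR-1938 was in both sets of 5. The other arm came at rank 127 on the spike-in scale and 168 on the total scale of 698.

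MiR-574-5p had other neighbours. On the spike-in scale they were miR-28a-3p (0.98) and miR-152-3p, miR-96-5p, miR-99b-3p and miR-125a-3p (all 0.97), with a median of 0.74 over all compared. Those leading on the total scale were miR-96-5p (0.97), miR-28a-3p (0.95), miR-183-5p and miR-152-3p (both 0.94) and miR-7219-3p (0.92), with a median of 0.05. Of these, miR-28a-3p, miR-152-3p and miR-96-5p were in both sets. The 3p arm ranked 259 on the spike-in scale and 137 on the total scale. Of the 50 miRNAs nearest to each arm, 7 were shared on either scale. MiR-152-3p belongs to the miR-148 family, and miR-96 and miR-183 are cut from the same cluster of miRNAs, which is best known from sensory cells.

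The sequences of the leading neighbours show which of them share a seed.
miR-24-3p: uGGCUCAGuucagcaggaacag
miR-6413: uGGCUCAGaagagcagguagu
miR-28a-3p: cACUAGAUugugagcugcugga
miR-152-3p: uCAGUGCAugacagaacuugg
miR-96-5p: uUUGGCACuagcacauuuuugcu
miR-183-5p: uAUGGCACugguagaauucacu
MiR-24-3p and miR-6413, which led for the 3p arm on the total and the spike-in scale, have the same seed and the same base at 15 of 21 positions. MiR-6413 had 0.0801 to 0.158% of the UMIs of miR-24-3p, and r between them was 0.93 on the total scale, so the rank of miR-6413 is uncertain as a measurement of its own. The mature sequences of miR-96-5p and miR-183-5p lie 182 bases apart on chromosome 6, on the same strand, and r between these miRNAs was 0.98 on the total scale.

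Of the 16 C3H neighbours named above, edgeR called 6 higher in HCC mice on the spike-in scale and 7 on the total scale, where 7.51% and 8.47% of all miRNAs were called higher. Since they were chosen for their r with an arm over the same mice, nothing is read from this share. For miR-183-5p the log2 fold change was 3.79, standard error 0.94 (edgeR adjusted p = 0.0173), and its UMIs ran from 277 to 9631. MiR-96-5p had a log2 fold change of 3.12, standard error 0.89 (edgeR adjusted p = 0.0327), and miR-152-3p one of 2.72, standard error 0.82 (edgeR adjusted p = 0.0438). Among the neighbours of the 3p arm, miR-1843a-3p had 3.27 (edgeR adjusted p = 0.0200), miR-874-3p 3.06 (edgeR adjusted p = 0.0116) and miR-1938 2.48 (edgeR adjusted p = 0.0465). The other 10 did not pass on the spike-in scale, among them miR-28a-3p (2.16, edgeR adjusted p = 0.0919), miR-6413 (1.65, edgeR adjusted p = 0.102) and miR-24-3p (1.42, edgeR adjusted p = 0.189), which had 39053 to 139169 UMIs. The group difference is part of each r over the 13 mice, and within the 8 HCC mice the r of miR-24-3p with the 3p arm on the total scale was 0.96 and that of miR-96-5p with the 5p arm was 0.97.

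In the F2 libraries other miRNAs came closest, among 307 with at least 10 UMIs in every library. For miR-574-3p on the spike-in scale they were let-7d-3p (r = 0.83), miR-532-3p (0.82), and miR-191-5p, miR-434-3p and miR-326-3p (each 0.81), with a median of 0.63. The total scale put forward miR-192-5p (0.70), a miRNA abundant in liver and gut, miR-29b-3p (0.65), miR-434-3p and miR-187-3p (both 0.62) and miR-532-3p (0.55), with a median of 0.21. For miR-574-5p the highest values were lower. They run over all 53 libraries, and the 11 with this arm at 0 enter as 1 UMI. How far these entries set the values was not tested. On the spike-in scale miR-6365, miR-30b-5p and miR-350-3p had 0.57 and miR-365-3p and miR-127-3p 0.56, and on the total scale miR-6365 led with 0.40, before miR-30b-5p, miR-3067-5p, miR-127-3p and miR-350-3p with 0.37. MiR-192-5p had r = -0.01 with the 5p arm on the total scale.

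The ranking of C3H mice was followed in part by the F2 libraries for the 3p arm. Across 262 miRNAs compared in both tables, Spearman's rho of the r values was 0.51 for miR-574-3p and 0.17 for miR-574-5p on the total scale, and 0.15 and 0.03 on the spike-in scale. MiRNAs are not independent replicates, so no p is given. The F2 values of the 5p arm include the 11 libraries with this arm at 0. The 3 lowest values with the 3p arm on the total scale were those of let-7 family miRNAs in each table, a feature picked out after the values were seen. In C3H mice miR-98-5p had r = -0.83 and let-7g-5p and let-7i-5p -0.80, and in F2 libraries let-7a-5p had -0.58 and let-7b-5p and let-7c-5p -0.55. Over all 9 family members ranked, the let-7 5p arms and miR-98-5p, r on the total scale was -0.83 to -0.35 in C3H mice and -0.58 to -0.42 in F2 libraries. It was -0.01 to 0.39 and 0.43 to 0.69 on the spike-in scale, where the lowest miRNAs were others, miR-6967-3p at -0.28 in C3H mice and miR-1a-3p at 0.19 in F2 libraries.

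Lists of miRNAs show what else differed in the same plasma. Each is named for a tissue or cell type, except that of human HCC markers. The members need not be specific to that tissue, and miR-192-5p of the liver list is also abundant in gut. Of the 5 liver miRNAs, 4 were called higher in HCC mice on the spike-in scale and 0 lower, with a median log2 fold change of 4.51, and the log2 fold change of miR-122-5p, the main miRNA of hepatocytes, was 7.34 (edgeR adjusted p = 0.00303). Of the 9 other miRNAs on a list of human HCC markers, 4 were called higher and 0 lower, with a median of 2.81. The list is a human panel, published from patient cohorts, in its mouse forms. With the help of these libraries the study found miRNAs strongly tied to its HCC-associated co-expression modules. The panel members except miR-148a-3p, miR-224-5p and miR-125b-5p were among them. The study reported all panel members increased in C3H mice with HCC, so their direction here is not independent evidence. None of the 6 red cell, 5 platelet and leukocyte, 5 muscle, 8 mesenchymal or 6 epithelial miRNAs was called by edgeR on the spike-in scale, with medians of -0.54, -0.69, 1.47, 1.25 and 1.16. Under the total scale edgeR called 4 of the 5 platelet and leukocyte miRNAs, 1 red cell miRNA, miR-144-5p, and 2 epithelial miRNAs, miR-200c-3p and miR-141-3p, lower in HCC mice. Of all 1452 miRNAs tested, 32 were called lower on that scale and 8.47% higher. All 5 liver miRNAs and 5 of the 9 other human HCC markers were called higher there.

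Within the 8 HCC mice the 5p arm varied with the mean level of the liver list. The list stood at 18.97 and 18.84 on the log2 spike-in scale in HCC mice 5 and 2, which had the highest 5p levels, and at 13.30 in HCC mice 3 and 7, which had the lowest. Pearson's r with the 5p arm was 0.98 and rho 0.98 (exact permutation p = 4.96e-05 and 0.000397, adjusted over 14 pairs of arm and list p = 0.000694 and 0.00532), and r was 0.98 without the 2 mice farthest from the median of the list. It was 0.93 on the total scale (exact permutation p = 0.000521, adjusted p = 0.00729), and 0.68 there without the 2 farthest mice. For the 3p arm r with the liver list was 0.76 on the spike-in scale (exact permutation p = 0.0291, adjusted p = 0.0478), 0.13 without the 2 farthest mice, and 0.25 on the total scale (exact permutation p = 0.507). Without HCC mouse 4 the r of the 3p arm with the list was 0.93 on the spike-in scale (exact permutation p = 0.00536) and 0.36 on the total scale (exact permutation p = 0.404). The difference between the arms in these values was not tested.

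The liver was not the sole list that the 5p arm varied with. Its r on the total scale was 0.93 with the epithelial list (exact permutation p = 0.00246, adjusted p = 0.0172) and 0.93 with the human HCC markers (exact permutation p = 0.00414, adjusted p = 0.0193). With the mesenchymal list r was 0.76 (exact permutation p = 0.0365, adjusted p = 0.106), and with the red cell list it was -0.75 (exact permutation p = 0.0378, adjusted p = 0.106). The epithelial list did not vary as a unit. Over all 13 C3H mice on the total scale, miR-200c-3p had r = -0.66 with the 5p arm and miR-141-3p -0.61. Its other members had 0.70 to 0.79. Within the 8 HCC mice, 5 of the 7 lists passed with the 5p arm on the spike-in scale and 4 of the 7 with the 3p arm, and on the total scale 3 and 0. The lists are not separate: the human HCC markers share miR-122-5p with the liver list. They share miR-214-3p, miR-100-5p and miR-125b-5p with the mesenchymal list. HCC mice 1 and 6, with the highest 5p levels on the total scale, had the lowest levels of the red cell list, 12.75 and 12.67 on that scale, and the part of blood cell RNA in these values was not tested. These p-values take the 8 libraries as independent, close pairs included, and no list was tested with the pairs summed.

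**Figure D5:**
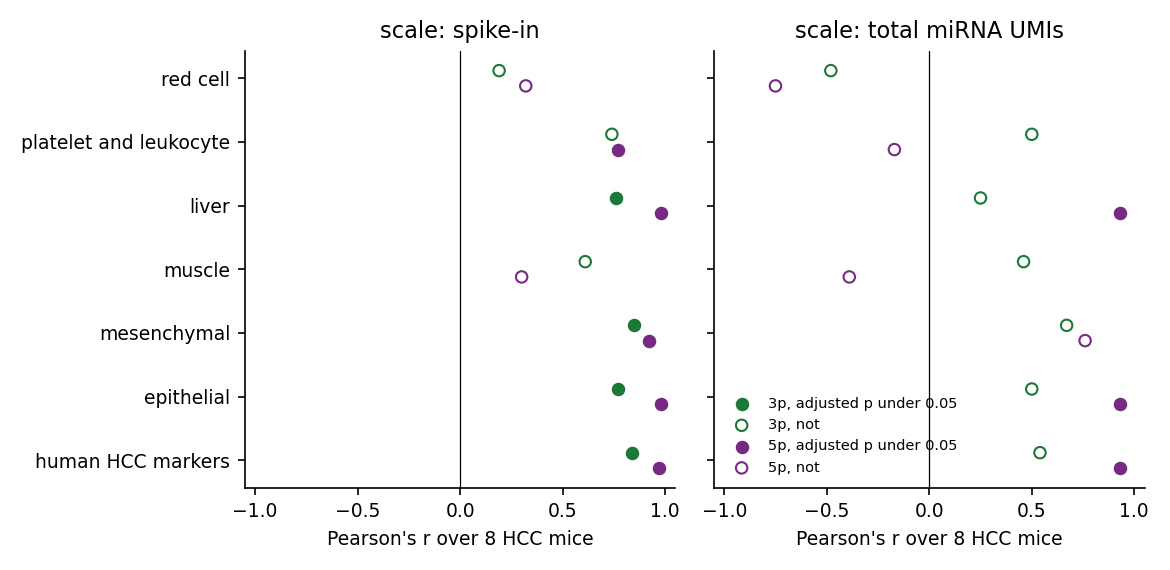
Pearson's r over the 8 HCC mice between each arm of miR-574 and the mean log2 level of each list, on the spike-in scale (left) and the total scale (right), filled where the adjusted exact permutation p was under 0.05. On the total scale the 5p arm is at 0.93 with the liver, epithelial and human HCC marker lists, and no list passed for the 3p arm.

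In the F2 libraries the link of the 5p arm with the liver list was weak. Its r with the list was 0.40 on the spike-in scale and 0.10 on the total scale over 53 libraries, where that of the 3p arm was 0.73 and 0.46. MiR-192-5p and miR-194-5p, which share clusters, had the highest r of the 5 liver miRNAs with the 3p arm on the total scale, 0.70 and 0.46, and miR-122-5p had 0.22. The part of the low counts of the 5p arm, 10 to 41 UMIs where listed and 0 in 11 libraries, in these values was not tested. With the red cell list the 3p arm had r = 0.64 on the spike-in scale and -0.24 on the total scale, so that the direction of this relation followed the scale.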

How the data were processed

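Plasma small RNA libraries with molecular barcodes were sequenced for 13 C3H mice and 53 F2 samples. The deposited UMI counts carry no normalization. The authors mapped reads to GRCm38, with miRNAs as in miRBase, and counted both spike-ins as well. The submitters' processing notes also name Bowtie2 and FastQC. C3H columns were matched to mice by the label. F2 columns, which name no sample, were matched to the F2 group alone.

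EdgeR 4.0.16 in R 4.3.3 tested the miRNAs that reached 10 UMIs in at least 5 mice, with spike-in library sizes and a Benjamini-Hochberg threshold of 0.05. Single values were compared in Python 3.11.15 with scipy 1.17.1 by exact permutation, and correlations over 13 mice by 100000 resamples. The interval of a difference holds the shifts that this test keeps at 95%. RNAfold 2.7.2 folded the hairpin. Of the miRNA names, 1566 in the C3H and 1612 in the F2 table matched RefSeq. Scripts were tested on simulated data.

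Named miRNAs are both arms, the 5 nearest to each arm by table and scale, members of the lists, and miRNAs of the same seed or UG repeat. The members and lists were chosen with earlier results of these data known. Alternatives were TMM, UniSP4 and total scales, DESeq2 1.42.0, limma 3.58.1, other filters and UMIs added, a block on the replicate number, and leaving out single mice. That the samples are separate mice is taken from the labels.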

Additional observations from a re-analysis of the deposited data

How the results depend on the processing

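MiR-574-3p kept its direction under all 24 alternatives and lost its call under 8. Limma gave 2.05, and leaving out each mouse in turn gave 2.03 to 2.80 (adjusted p 0.0106 to 0.0929 in edgeR). MiR-574-5p was called under 6, with log2 fold changes of 1.46 by DESeq2 with its own factors and 2.34 when scaled to the spike-ins, and 2.03 to 2.53 with each mouse left out. The difference of its mean log2 level was 1.19 to 1.99 with each mouse left out, and that of the log2 ratio was -0.79 to -0.31, past the threshold in none of 16 alternatives. The number of miRNAs called higher was 173 and 181 by DESeq2 with its own factors and with the spike-ins, 44 by limma, and 44 to 157 with each mouse left out. The number called lower was 27 with TMM, 1 with UniSP4 alone, 32 on the total scale, and 49 and 2 by DESeq2. The replicate numbers do not pair the mice (correlation of deviations -0.05 to 0.21), and the replicate block over mice 1 to 5 gave miR-574-5p 2.18 and miR-574-3p 2.40 (edgeR adjusted p 0.0107 and 0.00436). The same mice without the block, chosen after seeing the data, gave 2.63 for miR-574-5p and 165 miRNAs called higher.

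Within the 8 HCC mice r of the arms was 0.33 with TMM, 0.45 on the total scale, 0.20 without the 2 farthest mice and 0.95 without HCC mouse 4, and rho was 0.64. In F2 libraries it was 0.21 with TMM, 0.36 with UniSP4 alone, 0.22 on the total scale and 0.63 in libraries listing the 5p arm. The last, the summed pairs and the values without HCC mouse 4 were chosen after seeing the data. Of the 5 miRNAs nearest to miR-574-3p in C3H mice, 2 stayed with TMM, 1 on the total scale, 2 by rho and 1 with at least 100 UMIs. For miR-574-5p 3 stayed with TMM, UniSP4, the total scale and 100 UMIs, and 2 by rho. In F2 libraries 1 and 3 stayed with TMM for the 3p and 5p arm, 2 for the 3p arm on the total scale, 3 with UniSP4 alone, 3 and 2 by rho, and 1 and 1 with 100 UMIs. Of the 7 lists, 0 passed for the 3p arm with TMM or on the total scale and 2 with UniSP4, against 3 for the 5p arm with TMM or on the total scale. Signs turned for lists not called, and for the platelet and leukocyte list with the 5p arm, which had been called. That list had -0.23 with TMM and -0.17 on the total scale with the 5p arm, and -0.19 with TMM with the 3p arm. The red cell list had -0.72, -0.02 and -0.48 with the 3p arm (TMM, UniSP4, total), and -0.59 and -0.75 with the 5p arm (TMM, total). The muscle list had -0.60 and -0.39 with the 5p arm. The cause of these changes was not tested.

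The 5p arm rests on 12 to 148 UMIs in C3H mice and on at most 41 in F2 libraries, where counting gives an SD of 0.34 of the 0.75 seen on the total scale. Of 10 groups of values examined for a mouse far from the others, none was flagged. HCC mouse 4 still stood apart in its 3p count, with 16875 UMIs against 6589 in HCC mouse 1, the next highest.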
